A study of Rattus norvegicus with 16 samples.

Results

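Osteoarthritic rat knee cartilage treated with cells and a drug, together with either of 2 carrier materials, was compared with osteoarthritic cartilage whose labels name no treatment. The comparison took 12 of the 16 libraries of the study, chosen by their labels. The treated side held 8 libraries, 4 from cartilage that had received cells and drug with hyaluronic acid (HA) and 4 from cartilage that had received them with a coacervate. The other side held 4 osteoarthritic libraries, whose library names read PBS. The remaining 4 libraries, from healthy cartilage and named Sham, entered the same model and were used only to show where healthy levels lay. All libraries were labelled as 10 weeks of age. HA is a long sugar polymer of joint fluid, and a coacervate is a polymer-rich liquid that separates from water. The labels name neither the drug, the cells nor the polymers of the coacervate, nor how osteoarthritis was brought about. No group had a carrier, the cells or the drug alone, so carrier, cells and drug cannot be told apart. The labels do not say whether replicates came from separate animals, and p-values measure the spread between these libraries only.

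Articular cartilage is made by chondrocytes, which lay down type II collagen and the proteoglycan aggrecan. In osteoarthritis this matrix is lost to collagenases and aggrecanases, while the synovial lining and its macrophages release chemokines and cytokines. Injected cells and anti-inflammatory or matrix-preserving drugs are studied as ways to slow that loss, and HA is in use as a joint lubricant. The question of the pooled comparison was which genes moved with treatment whichever carrier was used.

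The libraries held 36988722 to 50725189 counts, and 14337 genes of 23552 reached the level needed for a test, 1 FPKM (sequenced fragments scaled to transcript length and library size) in at least 4 libraries. Chondrocyte genes were present in all 16 libraries, with Col2a1 (type II collagen) at 1086 to 3059 CPM (counts scaled to a common library size with edgeR's TMM factors). So were genes of blood and marrow. Haemoglobin genes took 11.1% to 16.3% of the counts in the 8 treated libraries, against 22.2% and 21.7% in osteoarthritic replicates 2 and 3 and 12.7% and 10.2% in replicates 1 and 4. Osteoarthritic replicates 2 and 3 stood apart from all other libraries. A principal component that held 32.5% of the variance placed the 8 treated libraries at -32.3 to 12.7, these replicates at 69.6 and 58.9, and osteoarthritic replicates 1 and 4 at -22.4 and -14.2. The median standard deviation of a gene on the log2 scale was 0.175 in the HA group, 0.188 in the coacervate group, 0.343 in the osteoarthritic group and 0.159 in the healthy group. Results are therefore given with all 4 osteoarthritic libraries and, beside them, without osteoarthritic replicates 2 and 3, which leaves 2 osteoarthritic libraries. Fewer cells of a type and less RNA per cell cannot be told apart in such bulk samples.

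**Figure D1:**
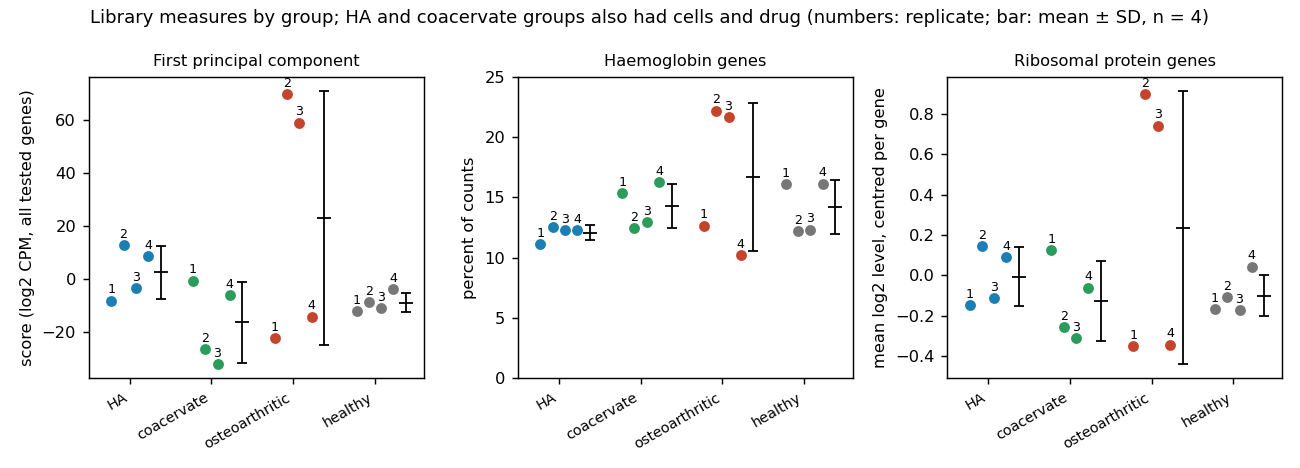
Position on the first principal component, haemoglobin share of counts (percent) and mean log2 level of 93 ribosomal protein genes (each gene centred on its mean over the 16 libraries) for every library, with the mean and SD of each group of 4. Osteoarthritic replicates 2 and 3 lie at 69.6 and 58.9 on the component and hold 22.2% and 21.7% haemoglobin counts, above all treated libraries in each panel.

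No gene passed the test of both treatments pooled against osteoarthritic cartilage. The fold change was the mean of the HA and coacervate group effects minus osteoarthritic, on the log2 scale, and edgeR's quasi-likelihood test called 0 of 14337 genes (0%) at an adjusted p under 0.05, with a smallest adjusted p of 0.253. At an unadjusted p under 0.05 there were 2342 genes, 720 higher with treatment (5.02% of those tested) and 1622 lower (11.3%). The median fold change of all tested genes was -0.01. DESeq2 called 75 genes in the same libraries, 28 higher and 47 lower, and limma called 1, on log2(FPKM + 1), log2(FPKM + 0.1) or voom-weighted counts. That gene was AC093995.1, an unnamed locus of very low level chosen here after its values were seen, with 0.805, 0.700, 0.824 and 0.900 CPM with HA, 0.533, 0.755, 0.672 and 0.686 CPM with coacervate and 0, 0, 0 and 0.239 CPM in osteoarthritic cartilage. The values that follow therefore describe the genes with the smallest p-values in each direction that reached a mean of 5 FPKM. Each of these 24 genes had an edgeR adjusted p of 0.253 and is given as not passing, although DESeq2 called 23 of them (all but Tle4). DESeq2 used the same counts from which these genes were chosen, so its calls on them lend no independent support.

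Among the 12 leading genes with higher levels after treatment were a receptor, an ectoenzyme and several regulators of transcription and signalling, with differences of 0.29 to 0.71 on the log2 scale. Adgrg1 encodes an adhesion G protein-coupled receptor (ENSRNOG00000014963; rn6 chromosome 19, 10423501 to 10460674). It had 43.2, 35.5, 48.8 and 39.2 CPM with HA, 48.0, 57.8, 58.0 and 49.3 CPM with coacervate and 40.5, 26.4, 30.5 and 30.1 CPM in osteoarthritic cartilage. All 4 coacervate values lay above the osteoarthritic ones, while HA replicates 2 and 4 lay below osteoarthritic replicate 1. The difference was 0.56 ± 0.12 (SE; 95% interval 0.32 to 0.81). Cd38, an enzyme on the cell surface that consumes NAD, is carried by B cells, plasma cells and other leukocytes (rn6 chromosome 14, 71715269 to 71754672). Its values were 35.8, 31.9, 34.4 and 37.5 CPM with HA, 40.8, 42.1, 41.4 and 39.3 CPM with coacervate and 32.2, 28.4, 29.3 and 26.6 CPM in osteoarthritic cartilage, so that only HA replicate 2 lay within the osteoarthritic range, and the difference was 0.37 ± 0.08.

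Nlk encodes Nemo-like kinase, which acts on Wnt-pathway transcription factors (rn6 chromosome 10, 65840052 to 65963932). The gene had 67.1, 66.3, 70.6 and 68.8 CPM with HA, 78.1, 75.9, 67.2 and 73.8 CPM with coacervate and 54.5, 54.2, 56.8 and 53.7 CPM in osteoarthritic cartilage. The groups did not overlap, since the lowest treated value exceeded the highest osteoarthritic one, and the difference was 0.37 ± 0.08 (0.39 without osteoarthritic replicates 2 and 3). Etv6, a transcriptional repressor of the ETS family needed in blood stem cells, had 15.0, 12.5, 14.7 and 12.7 CPM with HA, 14.8, 16.3, 14.6 and 12.8 CPM with coacervate and 10.7, 8.37, 8.72 and 12.4 CPM in osteoarthritic cartilage. Its groups also did not overlap, although HA replicates 2 and 4 and coacervate replicate 4 came close to osteoarthritic replicate 4. The difference was 0.49 ± 0.12. Cdip1, a mediator of cell death downstream of p53, had 39.8, 36.0, 39.5 and 42.1 CPM with HA, 39.5, 39.9, 45.0 and 47.9 CPM with coacervate and 35.7, 24.5, 25.4 and 30.6 CPM in osteoarthritic cartilage. The lowest treated library was just above osteoarthritic replicate 1, and the difference was 0.50 ± 0.13.

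The other 7 leading genes overlapped between the groups, Rps18l1 through osteoarthritic replicate 2 and the rest through replicate 1 or 4. Gp1ba, the platelet receptor for von Willebrand factor, had the largest difference of the 12 at 0.71 ± 0.19, with 61.9 to 93.7 CPM in treated and 67.5, 36.4, 41.5 and 59.4 CPM in osteoarthritic cartilage. Tle4, a Groucho-family corepressor, had 50.8 to 68.9 CPM in treated and 47.3, 45.1, 41.2 and 54.2 CPM in osteoarthritic cartilage (0.34 ± 0.09). Qrich1, a transcriptional regulator of the unfolded protein response, differed by 0.29 ± 0.07 and the phosphoinositide-binding adaptor gene Plekha2 by 0.37 ± 0.09. The difference was 0.44 ± 0.11 for S100pbp, which encodes a partner of the calcium-binding protein S100P, and 0.37 ± 0.10 for Csrnp1, a nuclear protein induced by axin. Rps18l1, a ribosomal protein-like gene, differed by 0.57 ± 0.14, against the direction of most ribosomal protein genes. Reads may be divided between it and its near copies, which leaves its value uncertain. Without osteoarthritic replicates 2 and 3 the 12 differences were 0.19 to 0.65, all positive, and none passed.

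**Figure D2:**
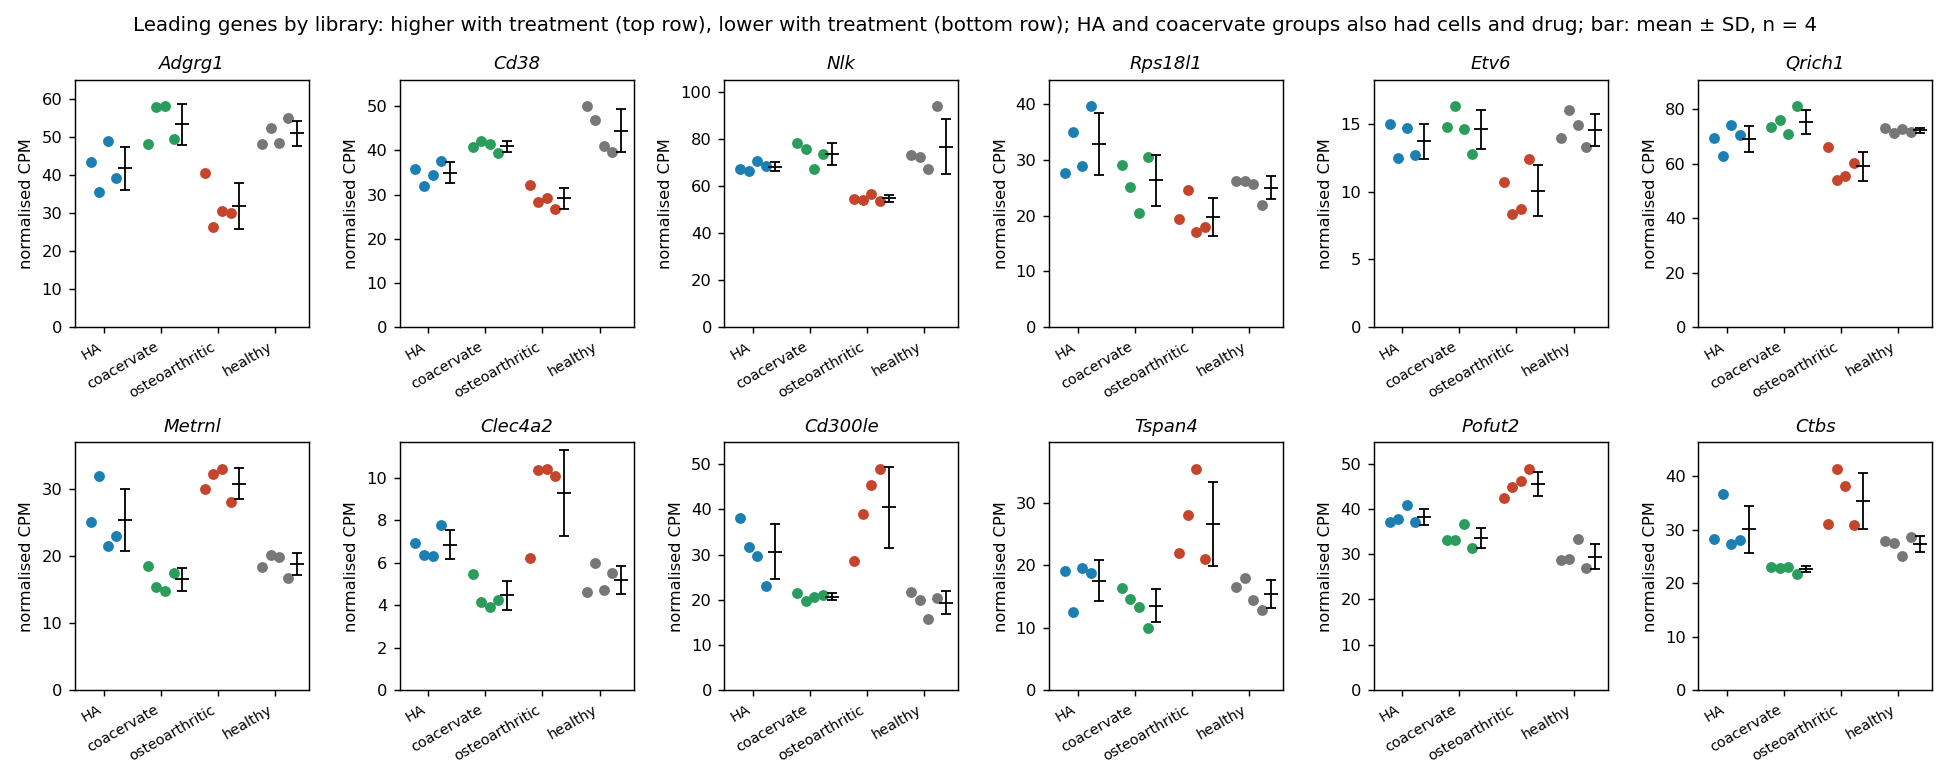
Normalised CPM of the 6 leading genes in each direction in every library of the HA, coacervate, osteoarthritic and healthy groups (each point 1 library, bar mean ± SD, n = 4, axes from 0). Nlk, Etv6, Tspan4 and Pofut2 do not overlap between the 8 treated and 4 osteoarthritic libraries, and Metrnl, Clec4a2 and Cd300le are lower with coacervate than with HA.

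The 12 leading genes with lower levels after treatment included surface proteins of myeloid cells, lysosomal proteins and secreted factors. Metrnl, a secreted factor made by macrophages, fat and other cells (ENSRNOG00000046202; rn6 chromosome 10, 110893232 to 110907243), had 25.02, 31.9, 21.5 and 23.04 CPM with HA, 18.4, 15.4, 14.8 and 17.4 CPM with coacervate and 30.0, 32.3, 33.0 and 28.0 CPM in osteoarthritic cartilage. Coacervate values were all well below osteoarthritic ones, whereas HA replicate 2 lay inside the osteoarthritic range. The pooled difference was -0.59 ± 0.11 (95% interval -0.82 to -0.36). Clec4a2, a C-type lectin of myeloid cells, had 6.94, 6.36, 6.33 and 7.78 CPM with HA, 5.48, 4.17, 3.93 and 4.26 CPM with coacervate and 6.23, 10.4, 10.4 and 10.1 CPM in osteoarthritic cartilage. Osteoarthritic replicate 1 lay below all HA libraries, and the pooled difference was -0.75 ± 0.15. Cd300le, of the CD300 family of myeloid receptors, had 38.1, 31.6, 29.8 and 23.1 CPM with HA, 21.4, 19.7, 20.5 and 21.0 CPM with coacervate and 28.6, 38.9, 45.4 and 49.0 CPM in osteoarthritic cartilage. Osteoarthritic replicate 1 was again the lowest of its group and overlapped with HA, and the pooled difference was -0.68 ± 0.14.

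Tspan4, a tetraspanin of the migrasomes that moving cells leave behind (rn6 chromosome 1, 214016897 to 214038723), had 19.1, 12.6, 19.5 and 18.8 CPM with HA, 16.3, 14.6, 13.4 and 9.89 CPM with coacervate and 21.9, 28.1, 35.4 and 20.9 CPM in osteoarthritic cartilage. No treated library reached the lowest osteoarthritic one, and the difference was -0.79 ± 0.17 (-0.48 without osteoarthritic replicates 2 and 3). Pofut2 adds O-fucose to thrombospondin repeats, which many matrix proteases and matrix proteins carry (rn6 chromosome 20, 12117811 to 12128747). Its values were 37.1, 37.7, 40.9 and 37.0 CPM with HA, 33.1, 33.1, 36.6 and 31.3 CPM with coacervate and 42.4, 44.8, 46.2 and 48.8 CPM in osteoarthritic cartilage. All 8 treated values lay below all 4 osteoarthritic values, and the difference was -0.35 ± 0.08, with -0.35 without osteoarthritic replicates 2 and 3. Rras, a small GTPase that acts on integrin adhesion, had 12.2, 13.3, 14.1 and 11.3 CPM with HA, 11.5, 12.8, 13.5 and 12.7 CPM with coacervate and 14.3, 18.7, 20.2 and 16.6 CPM in osteoarthritic cartilage. Its groups did not overlap, and the HA and coacervate differences were nearly equal at -0.46 ± 0.13 and -0.47 ± 0.13. Erfe, the erythroid hormone that lowers hepcidin, did not overlap either and differed by -0.70 ± 0.16, with 4.66 to 7.24 CPM in treated and 8.44, 13.1, 9.57 and 7.48 CPM in osteoarthritic cartilage.

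The lysosomal genes among the 12 were Npc2, whose product hands cholesterol out of lysosomes, and Ctbs, a glycosidase. Npc2 had 192, 225, 186 and 171 CPM with HA, 155, 131, 142 and 136 CPM with coacervate and 180.5, 243, 278 and 217 CPM in osteoarthritic cartilage and a difference of -0.48 ± 0.11. Ctbs had 28.3, 36.7, 27.3 and 28.1 CPM with HA, 23.1, 22.9, 22.99 and 21.8 CPM with coacervate and 31.2, 41.4, 38.2 and 30.8 CPM in osteoarthritic cartilage and a difference of -0.44 ± 0.10. Both were lowest in the coacervate group and overlapped between HA and osteoarthritic libraries. The copper transporter gene Slc31a2 differed by -0.51 ± 0.12, with -0.23 ± 0.14 for HA and -0.79 ± 0.14 for coacervate. Kdelr3, a receptor that returns chaperones to the endoplasmic reticulum, differed by -0.48 ± 0.11. The remaining gene, embryonic globin Hbe1, rested on the libraries that stood apart. It had 0.252 to 1.62 CPM in treated libraries and 0.499, 9.95, 10.6 and 1.21 CPM in osteoarthritic replicates 1 to 4, and its difference of -2.58 ± 0.59 was 0.12 without replicates 2 and 3. The other 11 genes kept a negative difference without those libraries, between -0.62 and -0.22.

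Separation of all 8 treated libraries from all 4 osteoarthritic ones was rare. It held for 43 genes that were higher with treatment (0.3% of those tested) and 24 that were lower (0.167%). Their differences ran from 0.10 to 3.52 in the first set, with a median of 0.45, and from -1.61 to -0.11 in the second, with a median of -0.44. The share that chance alone would give was not computed, so these counts describe the spread and are not read as a treatment effect. Beside the genes above, the following were chosen after their values were seen. On the higher side were Rag2, a recombinase subunit of developing lymphocytes (0.81 ± 0.26), the ubiquitin ligase gene Ube3a (0.30 ± 0.08), the mismatch repair gene Msh6 (0.25 ± 0.07), and Pi15, a secreted peptidase inhibitor (1.07 ± 0.25). Rag2 had 16.2 to 26.2 CPM in treated and 15.0, 7.27, 12.9 and 11.9 CPM in osteoarthritic cartilage. On the lower side were Snai2, a transcription factor of mesenchymal cells (-0.58 ± 0.15), the prolyl hydroxylase gene P4ha3, whose product modifies collagen (-0.47 ± 0.12), and Pgf, placental growth factor (-0.54 ± 0.14). Snai2 had 5.73 to 11.1 CPM in treated and 12.5, 13.2, 14.2 and 12.1 CPM in osteoarthritic cartilage, with its lowest osteoarthritic libraries close to the highest treated one. P4ha3 had 4.76 to 6.02 CPM in treated and 6.59, 7.93, 7.63 and 8.85 CPM in osteoarthritic cartilage. Pgf had 2.86 to 4.72 CPM in treated cartilage, below an osteoarthritic group that was nearly uniform at 5.44, 5.49, 5.64 and 5.75 CPM. The split of 43 higher and 24 lower genes moved with the scaling, to 54 and 15 with total counts only, 32 and 31 with haemoglobin left out of the totals, and 35 and 30 with the 12 libraries scaled alone. With edgeR's own filter, which tests 17446 genes, it was 37 and 40. The count of 67 was 482 without osteoarthritic replicate 1, 107 without replicate 2, 297 without replicate 4, 146 without HA replicate 2, 104 without coacervate replicate 3 and 961 without osteoarthritic replicates 2 and 3. Smaller groups separate more easily, so these counts cannot be compared directly with 67. How much of each rise came from group size was not tested.

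Gene lists of cell types and processes are described by counts and by the median fold change, beside -0.01 for all tested genes (0.01 without osteoarthritic replicates 2 and 3). No member of any of the 36 lists passed edgeR's test. DESeq2 called 75 of all 14337 tested genes and, among the 865 tested members of the lists, 12, at most 2 in a list. These were Hbe1, Erfe, Npc2, Gp1ba, Csrnp1, Rps18l1, Fabp5, S100a8, Gimap4, Atp5md, the peroxidase gene Gpx8 and the lysosomal membrane protein gene Lamp1, which was chosen after its values were seen. With total counts as the only scaling 10 list medians took the other sign, and on log2 FPKM 12 did, all of them medians near 0 or, for adipocyte, secretory and haemoglobin genes, of modest size. B cell genes were mostly higher with treatment, with 19 of 24 positive and a median of 0.32. Their mean level, relative to the average of the 16 libraries, was 0.08, -0.07, 0.12 and 0.27 with HA, 0.13, -0.01, -0.26 and 0.34 with coacervate and -0.13, -0.01, -0.02 and -0.95 in osteoarthritic libraries. Osteoarthritic replicate 4 was the lowest by far, while replicates 1 to 3 lay within the treated range. The median was 0.53 without osteoarthritic replicates 2 and 3, and 0.14 without replicate 4 alone. Pax5, which commits cells to the B lineage, had 11.8, 11.98, 13.3 and 14.4 CPM with HA, 12.6, 15.2, 13.7 and 17.6 CPM with coacervate and 13.3, 7.14, 8.53 and 4.29 CPM in osteoarthritic cartilage and a difference of 0.73 ± 0.21. Rag1, partner of Rag2, had 67.5, 80.6, 89.6 and 107 CPM with HA, 105, 79.8, 67.3 and 96.4 CPM with coacervate and 70.3, 32.3, 40.5 and 44.2 CPM in osteoarthritic cartilage and a difference of 0.89 ± 0.26. Both had 1 osteoarthritic library, replicate 1, among the treated values. Cd79a, a part of the B cell receptor, was at 0.31 ± 0.21. The list took 0.123% to 0.184% of treated and 0.0907% to 0.145% of osteoarthritic counts, and its part in the values of Cd38 was not tested.

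Megakaryocyte and platelet genes were positive in 12 of 15, with a median of 0.37 (0.39 without osteoarthritic replicates 2 and 3). Gp5, a subunit of the same platelet receptor as Gp1ba, had 21.5 to 34.7 CPM in treated and 28.0, 17.8, 18.8 and 16.8 CPM in osteoarthritic cartilage (0.53 ± 0.15), where osteoarthritic replicate 1 was inside the treated range. The list's mean level was -0.15 to 0.24 in treated and -0.44 to -0.17 in osteoarthritic libraries, which did not overlap. The gap was narrow, with HA replicate 4 at -0.153 and osteoarthritic replicate 3 at -0.174. Of the 15 genes, 0 had all 8 treated values above all 4 osteoarthritic ones, against 0.3% of all tested genes. Skeletal muscle genes had a median of 0.39, made of -0.15 with HA and 0.89 with coacervate. They took 0.669%, 0.614%, 0.575% and 0.706% of counts with HA, 0.833%, 1.39%, 2.71% and 0.820% with coacervate and 0.882%, 0.459%, 0.615% and 0.630% in osteoarthritic cartilage. Coacervate replicates 2 and 3 were the highest, and the median was 0.16 without replicate 3. Acta1, skeletal muscle actin, reached 5633 CPM in coacervate replicate 3, against 848 to 1709.9 CPM in osteoarthritic libraries, and differed by 0.64 ± 0.29. Des, the muscle intermediate filament desmin, differed by 0.94 ± 0.32 and Actn2, a protein of the muscle Z-disc, by 0.81 ± 0.32.

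Inflammatory mediators were lower in 19 of 21, with a median of -0.18 (-0.04 with HA, -0.49 with coacervate, and -0.32 pooled without osteoarthritic replicates 2 and 3). Il1b, interleukin-1 beta, had 13.5, 19.7, 10.3 and 15.5 CPM with HA, 18.5, 9.61, 9.05 and 10.2 CPM with coacervate and 10.7, 24.98, 27.3 and 20.3 CPM in osteoarthritic cartilage, and its difference of -0.65 ± 0.27 did not pass (edgeR adjusted p = 0.276). Treated libraries lay on both sides of osteoarthritic replicate 1. Il6 was too low to be tested. MHC class II genes were lower in 12 of 12 (median -0.28, and -0.10 without osteoarthritic replicates 2 and 3), with the invariant chain gene Cd74 at -0.34 ± 0.13 and the lysosomal thiol reductase gene Ifi30 at -0.30 ± 0.09. T cell and NK cell genes were lower in 16 of 18 (median -0.42, and -0.18 without those libraries). The T cell adhesion gene Cd2 was at -0.80 ± 0.25 and Gimap4, a GTPase of lymphocytes, at -0.71 ± 0.18. Macrophage genes had a median of -0.30 (-0.06), osteoclast genes -0.24 (-0.34) and lysosome genes -0.06 (-0.18), where the value in parentheses leaves out osteoarthritic replicates 2 and 3. By carrier, the lysosome median was 0.06 with HA and -0.24 with coacervate, and the osteoclast median -0.06 and -0.35. The pooled lysosome median was 0.02 with total counts. Of the 41 lysosome genes, 13 had an unadjusted p under 0.05 in the pooled comparison. All of these had a lower pooled value, where the share among all tested genes was 11.3%.

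Several groups took their sign, or much of the size of their median, from osteoarthritic replicates 2 and 3. Ribosomal protein genes had a median of -0.44 with 83 of 93 negative, but 0.31 with 85 positive once those libraries were left out. Rpl37, of the large ribosomal subunit, had 16.8 to 26.0 CPM in treated and 17.2, 73.7, 67.2 and 20.6 CPM in osteoarthritic replicates 1 to 4. Nuclear oxidative phosphorylation genes changed sign in the same way, with -0.38 and 0.26. Their member Uqcrq, of respiratory complex III, had 26.2 to 38.5 and 26.7, 117, 114 and 29.6 CPM. Antioxidant genes had -0.35 with all libraries and 0.04 without the pair, with glutathione peroxidase Gpx1 at 597 to 865 CPM in treated and 647, 2111, 2047 and 737 CPM in osteoarthritic cartilage. Neutrophil granule genes had -0.25 and -0.01, and with all libraries their median was 0.05 with HA and -0.53 with coacervate. Their member S100a8, a subunit of calprotectin, had 703 to 1643 CPM in treated and 934, 5698, 3625 and 1176 CPM in osteoarthritic cartilage, and Camp, the cathelicidin gene, 221 to 489.6 and 264, 1330.0, 868 and 372 CPM. In each of these genes osteoarthritic replicates 2 and 3 exceeded every treated library while replicates 1 and 4 lay within the treated range. Secretory pathway genes had -0.15 and 0.03, adipocyte genes -0.18 and 0.04, and haemoglobin and erythroid genes -0.11 and 0.12, and these 3 medians were above 0 on log2 FPKM. Genes of the mitochondrial genome were positive in 12 of 13, with 0.29 and 0.12.

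**Figure D3:**
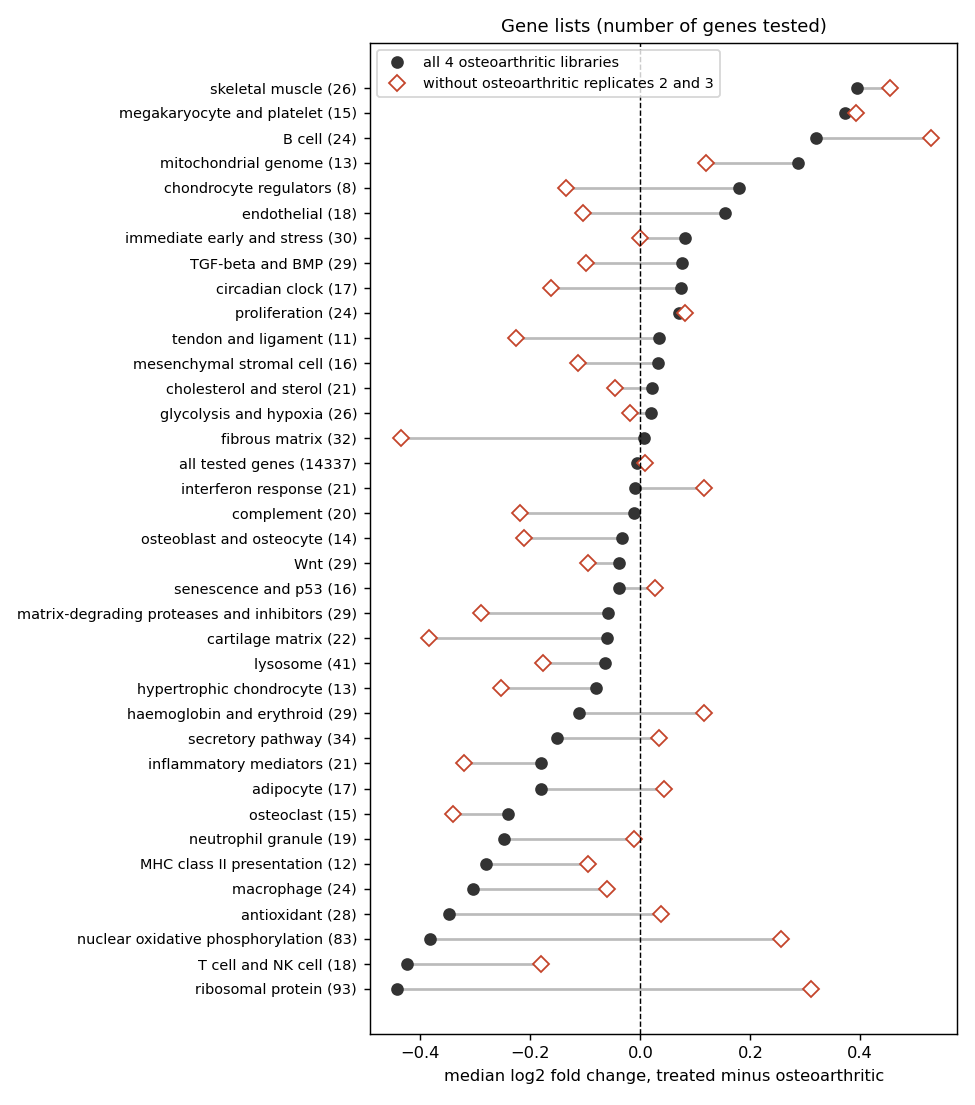
Median log2 fold change (treated minus osteoarthritic) of each of the 36 gene lists and of all tested genes, with all 4 osteoarthritic libraries (filled circles) and without replicates 2 and 3 (open diamonds). Ribosomal protein genes lie at -0.44 and 0.31 and fibrous matrix genes at 0.01 and -0.44, while platelet genes stay at 0.37 and 0.39.

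No gene of the cartilage itself passed the test, and the osteoarthritic libraries spread widely. Col2a1 had 2073, 2008, 3059 and 1982 CPM with HA, 2132, 1383, 1131 and 1787 CPM with coacervate and 2795, 1086, 1230.0 and 2706 CPM in osteoarthritic cartilage, a difference of -0.03 ± 0.28 (95% interval -0.62 to 0.56). Acan, the aggrecan core protein, had 205, 162, 269.8 and 178 CPM with HA, 202, 134, 175 and 197 CPM with coacervate and 278, 79.8, 101 and 295 CPM in osteoarthritic cartilage, a difference of 0.01 ± 0.31 (95% interval -0.64 to 0.66). In both genes osteoarthritic replicates 1 and 4 were high and replicates 2 and 3 low, with the treated libraries between or across them. Prg4, the joint lubricant lubricin, was at 0.18 ± 0.32, the matrix protein gene Comp at 0.12 ± 0.19 and the chondrocyte master regulator Sox9 at 0.46 ± 0.29. Col10a1, the collagen of hypertrophic chondrocytes, was at -0.36 ± 0.40, and Col1a1, the collagen of bone and fibrous tissue, at 0.12 ± 0.28. The collagenase gene Mmp13 had 414 to 762 CPM in treated and 836, 588, 647 and 430.4 CPM in osteoarthritic cartilage (0.06 ± 0.19), and the aggrecanase gene Adamts5 12.4 to 21.2 and 27.9, 11.2, 11.8 and 21.9 CPM (-0.13 ± 0.21). The intervals of Col2a1 and Acan reach past 0.5 in both directions, so they do not exclude a change of that size either way. The cartilage matrix list had 13 of 22 genes negative and a median of -0.06, or 0.02 with total counts. Without osteoarthritic replicates 2 and 3 that median was -0.38, with Col2a1 at -0.52 and Acan at -0.59, and neither passed.

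The other tissue lists moved in the same way when osteoarthritic replicates 2 and 3 were left out. Fibrous matrix genes had 0.01 with all libraries and -0.44 without the pair, proteases and their inhibitors -0.06 and -0.29, and tendon and ligament genes 0.03 and -0.23. Hypertrophic chondrocyte genes had -0.08 and -0.25, chondrocyte regulators 0.18 and -0.13, and osteoblast and osteocyte genes -0.03 and -0.21. Complement genes had -0.01 and -0.22, endothelial genes 0.15 and -0.10, and mesenchymal stromal cell genes 0.03 and -0.11. The labels do not name the added cells. The level of the stromal cell list was -0.11 to 0.20 in treated and -0.30 to 0.21 in osteoarthritic libraries, which overlapped. TGF-beta and BMP genes had 0.08 and -0.10, Wnt genes -0.04 and -0.10, and circadian clock genes 0.07 and -0.16. Small values of either sign were found for interferon response (-0.01 and 0.12), proliferation (0.07 and 0.08), senescence and p53 (-0.04 and 0.03), glycolysis and hypoxia (0.02 and -0.02), immediate early and stress (0.08 and -0.00025) and cholesterol and sterol genes (0.02 and -0.05). Cthrc1, a secreted protein of active fibroblasts, had 15.4, 27.5, 23.2 and 20.1 CPM with HA, 15.0, 12.7, 14.5 and 13.2 CPM with coacervate and 21.6, 20.9, 28.6 and 35.8 CPM in osteoarthritic cartilage and a difference of -0.63 ± 0.17, not passing.

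In some genes the pooled value averaged unlike HA and coacervate values, although the direct test between the carriers, given below, called 0 genes. Both treatments were set against the same 4 osteoarthritic libraries, so their values are given side by side without a count of agreement. With HA, 0 genes passed (0%; 908 at an unadjusted p under 0.05, 8 by DESeq2). With coacervate, edgeR called 21 genes, of which 3 rose (0.0209%) and 18 fell (0.126%), with an edgeR adjusted p of 0.0497 in 20 of them and 0.0421 in Metrnl. The 3 that rose, named after their values were seen, were Adgrg1 (0.74 ± 0.13), the muscle gene Igfn1 (2.47 ± 0.46) and the unnamed locus AABR07046707.1 (0.69 ± 0.13). Those that fell included the leading genes Metrnl, Clec4a2, Cd300le, Npc2, Ctbs and Slc31a2, which did not pass with HA. Leaving out any 1 healthy or any 1 coacervate library gave 0 calls each, as did osteoarthritic replicate 2 or 3 or HA replicate 1. The count was 1 without HA replicate 3, 7 without HA replicate 4, 3 without osteoarthritic replicates 2 and 3, 2054 without osteoarthritic replicate 1 and 1368 without replicate 4. The monocyte chemokine genes were close to osteoarthritic levels with HA and below them with coacervate. Ccl7 had 3.48, 7.60, 6.02 and 5.44 CPM with HA, 1.78, 0.477, 1.22 and 0.525 CPM with coacervate and 6.50, 2.81, 3.86 and 10.95 CPM in osteoarthritic cartilage, with differences of -0.10 ± 0.44 with HA and -2.59 ± 0.47 with coacervate. Of this pair only Ccl7 passed with coacervate. Ccl2 had 10.8, 22.9, 19.6 and 14.0 CPM with HA, 4.16, 2.84, 6.32 and 1.80 CPM with coacervate and 20.9, 13.1, 12.2 and 33.3 CPM in osteoarthritic cartilage, with -0.24 ± 0.44 and -2.39 ± 0.47. Apoe, a lipid carrier made in quantity by macrophages, had 1309, 2609.7, 2284 and 1321 CPM with HA, 389.7, 461, 561 and 271 CPM with coacervate and 1345, 1259, 1389 and 2639 CPM in osteoarthritic cartilage. Its differences were 0.18 ± 0.34 with HA and -1.98 ± 0.36 with coacervate, and the 4 coacervate values lay below all 4 HA and all 4 osteoarthritic ones.

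Of the 24 tested members of the macrophage list, 8 were positive in the pooled comparison and 10 without osteoarthritic replicates 2 and 3, and its median was 0.006 with HA and -0.40 with coacervate. Its member Trem2, a lipid receptor of macrophages, differed by 0.17 ± 0.31 with HA and -1.33 ± 0.31 with coacervate, not passing in either. The lysosomal protease gene Ctsl had -0.05 ± 0.13 and -0.77 ± 0.13, and the fatty acid-binding protein gene Fabp5 -0.24 ± 0.21 and -1.19 ± 0.21. Fcgr2a, a receptor for antibody, had -0.09 ± 0.17 and -1.07 ± 0.17 and was chosen after its values were seen. Mmp3, a protease of cartilage proteoglycans, had 36.6, 134, 81.4 and 14.7 CPM with HA, 17.7, 18.2, 29.2 and 8.20 CPM with coacervate and 62.8, 21.2, 41.4 and 137 CPM in osteoarthritic cartilage, with 0.02 ± 0.58 and -1.84 ± 0.60, and the protease inhibitor gene Timp1 -0.06 ± 0.19 and -0.87 ± 0.19. Ctsl, Fabp5 and Fcgr2a fell with coacervate by the test, and Mmp3 and Timp1 did not pass in either treatment. In such genes the pooled difference is an average of a value near 0 and a negative one. Skeletal muscle counts, given above, were highest in coacervate replicates 2 and 3, and their part in these values was not tested. The direct test of coacervate against HA called 0 genes (0%; smallest adjusted p 0.101, 1486 at an unadjusted p under 0.05), while DESeq2 called 325. The edgeR count was 11 without HA replicate 4 and 149 without osteoarthritic replicates 2 and 3. For Apoe the coacervate minus HA difference was -2.16 ± 0.36 (95% interval -2.92 to -1.40, edgeR adjusted p = 0.101) and for Ccl7 -2.49 ± 0.47 (-3.50 to -1.49, edgeR adjusted p = 0.108).

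Other leading genes were close in both treatments. Rras had a coacervate minus HA difference of -0.01 ± 0.13 (95% interval -0.28 to 0.26), Kdelr3 -0.08 ± 0.13 (-0.35 to 0.19), Etv6 0.09 ± 0.14 (-0.20 to 0.38), Plekha2 0.07 ± 0.11 (-0.16 to 0.30) and Csrnp1 -0.06 ± 0.11 (-0.29 to 0.18). These intervals do not exclude a difference, so the carriers are not shown to act alike on them. Of the 24 leading genes, 9 had an unadjusted p under 0.05 for the difference between carriers and none an adjusted one, the lowest being 0.138. Catalase, Cat, a peroxide-degrading enzyme, was lower with HA than with coacervate, with 154, 157, 174 and 201 CPM with HA, 209.7, 249.5, 274 and 220.3 CPM with coacervate and 233, 271, 320.3 and 213 CPM in osteoarthritic cartilage, and differences of -0.60 ± 0.13 and -0.12 ± 0.13 that did not pass.

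**Figure D4:**
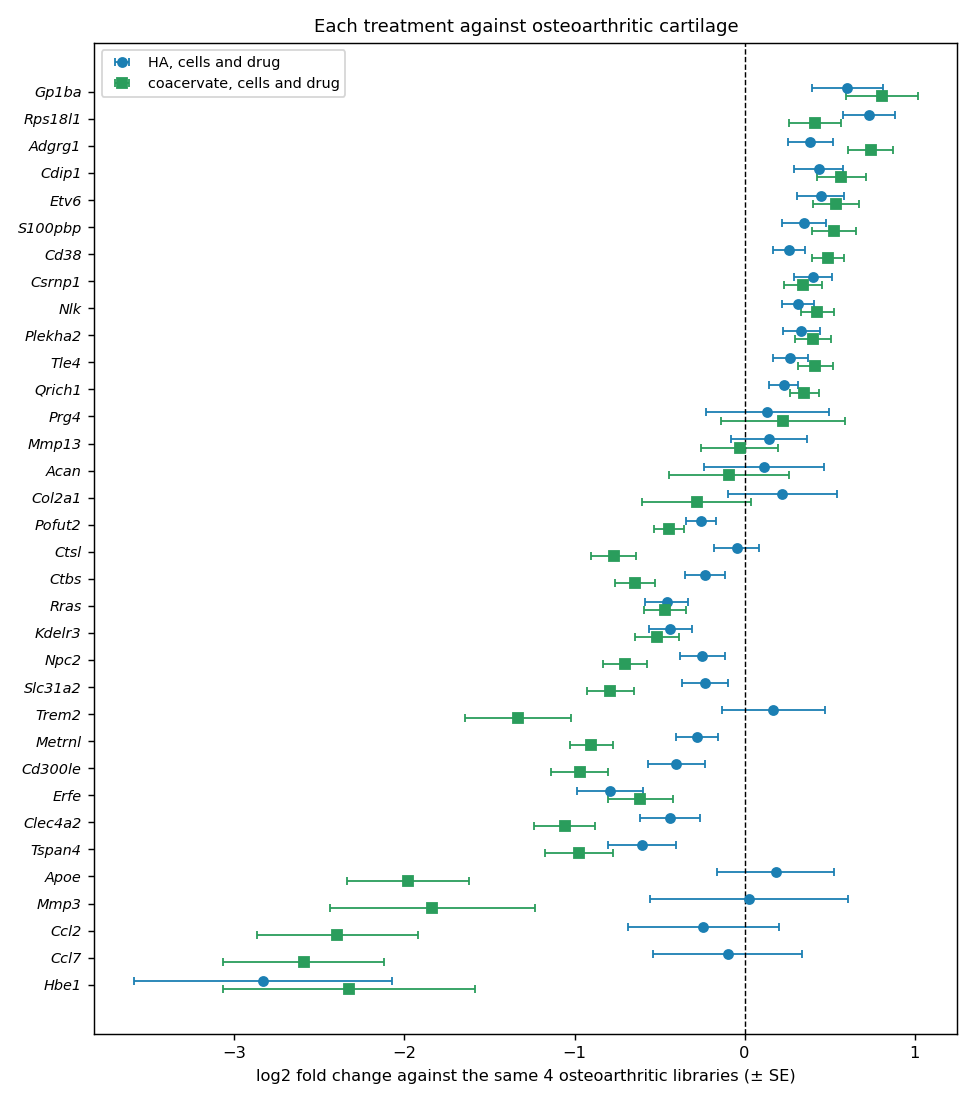
Log2 fold change of each treatment against the same 4 osteoarthritic libraries (± SE) for the 24 leading genes and 10 genes of interest, ordered by the pooled value. HA (circles) and coacervate (squares) coincide for Rras and Plekha2, and lie apart for Apoe (0.18 and -1.98), Mmp3, Ccl2 and Ccl7.

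Healthy libraries, named Sham, gave the levels of cartilage that was labelled healthy and whose titles name no treatment. Nlk had 73.3, 72.4, 67.4 and 93.9 CPM in healthy cartilage, Cd38 50.0, 46.9, 41.0 and 39.7 CPM and Adgrg1 48.1, 52.2, 48.3 and 54.9 CPM, all nearer to treated than to osteoarthritic values. These genes were picked by p-values that rest on the same osteoarthritic libraries, so their nearness to healthy levels lends no support for recovery. Metrnl had 18.4, 20.2, 19.9 and 16.7 CPM, within or near the coacervate range, and Pofut2 had 28.8, 28.9, 33.3 and 26.9 CPM, with 3 of 4 values below every treated library. Rras had 9.86, 10.2, 9.73 and 11.97 CPM, of which 3 lay below all 8 treated libraries. The pooled treated libraries against healthy ones gave 0 calls by edgeR (708 at an unadjusted p under 0.05). Treated against osteoarthritic libraries also gave 0 (2342 at that threshold), so 0 calls do not show that groups are alike.

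The count of passing genes turned on single osteoarthritic libraries. Without osteoarthritic replicate 1, edgeR called 1475 genes, 316 higher and 1159 lower with treatment, and without replicate 4 it called 566, 71 higher and 495 lower. Of these, 436 were shared, 29.6% of the larger and 77.0% of the smaller set, all in the same direction. Both settings share every library except osteoarthritic replicates 1 and 4, so this overlap lends no independent support. They also give more weight to osteoarthritic replicates 2 and 3. Of the 1475 genes, 600 had the same sign when replicates 2 and 3 were left out instead, and of the 566 genes 195 did. The same share over all tested genes was not computed. Leaving out osteoarthritic replicate 2 or 3, or any 1 of the 12 other libraries, gave 0 calls each. Without both replicates 2 and 3 edgeR called 1 gene, Card14, a scaffold of NF-kappa B signalling, chosen here after its values were seen. Card14 had 12.5, 15.1, 12.5 and 8.32 CPM with HA, 4.02, 4.09, 5.33 and 3.71 CPM with coacervate and 17.0, 7.41, 5.69 and 34.8 CPM in osteoarthritic replicates 1 to 4. Its difference was -1.84 in that setting (edgeR adjusted p = 0.00746) and -1.17 with all libraries (edgeR adjusted p = 0.253), and the HA values lay between osteoarthritic replicates 1 and 2.

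**Figure D5:**
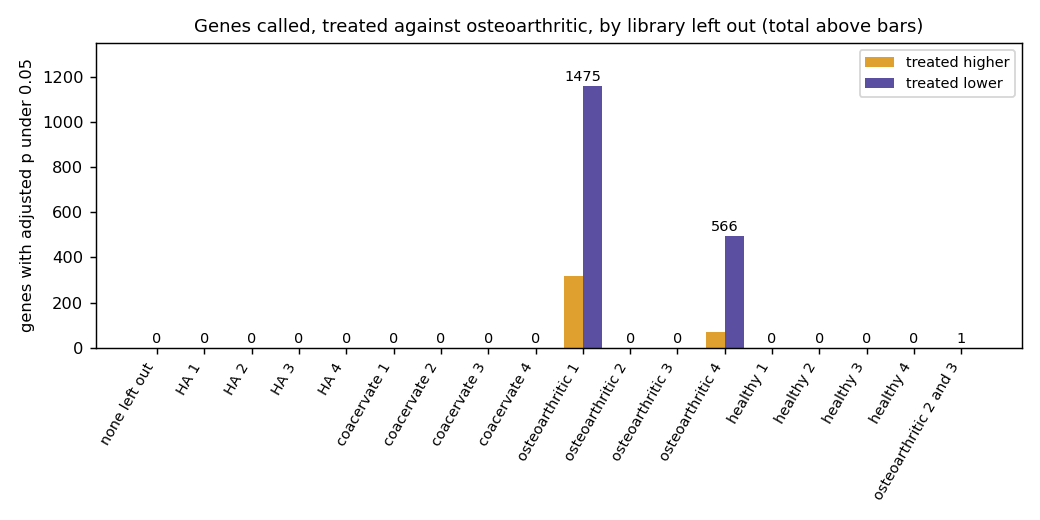
Number of genes with an adjusted p under 0.05 (edgeR), treated against osteoarthritic, when each library is left out in turn, split by direction with the total above the bars. The count is 1475 without osteoarthritic replicate 1, 566 without replicate 4, 1 without replicates 2 and 3 together and 0 elsewhere.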

How the data were processed

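Total RNA was extracted from rat knee cartilage and polyadenylated mRNA was sequenced as paired reads, with a dUTP protocol that marks strand, per the labels' protocols. Gene counts and FPKM values were deposited by the authors in 1 table of 16 libraries. The genome build rn6, the aligner HISAT2 2.2.1, the read trimmer cutadapt 1.9, the assembler StringTie 2.1.6 and both edgeR and DESeq2 appear in the submitters' processing notes; the counting tool, its strand setting and the annotation release are not given in the sources used here. The deposited counts are whole numbers with no normalization. The deposited FPKM values are scaled to gene length and library size by the authors and were used for level filters and for 2 alternatives.

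Libraries were grouped by their titles. Genes with 1 FPKM or more in at least 4 of 16 libraries were tested with edgeR 4.0.16 (TMM, quasi-likelihood, 4 group means), with the contrast of the mean of the HA and coacervate groups minus osteoarthritic and Benjamini-Hochberg adjustment over 14337 genes. Alternatives used DESeq2 1.42.0, limma 3.58.1 on log2 FPKM plus a pseudocount of 1 or 0.1 and on voom weights, other scalings and filters, the 12 compared libraries alone, each library left out, osteoarthritic replicates 2 and 3 left out and a replicate block. Only the edgeR test of the pooled comparison was tried on simulated counts, in which osteoarthritic replicates 2 and 3 did not stand apart. It recovered 31.3% of genes changed 1.5-fold, 76.1% of those changed 2-fold and 97% of those changed 4-fold. With the real spread of the osteoarthritic group these shares may differ. R 4.3.3 and matplotlib 3.10.9 were used. Symbols shared by several loci (1115 in the table) were kept as separate genes.

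Genes were named by rule. These were the 12 genes in each direction with the smallest p among named genes with a mean of at least 5 FPKM, the 2 with the smallest p in each list, and a panel of 20 markers; the text describes part of the genes so named and says where others were chosen after their values were seen. Of the genes the rule selected, 1 is not reported here. The members, the gene lists and the choice of libraries to leave out were made with earlier results of these data known, so they lend no independent support. Depth of 36988722 to 50725189 counts limits the precision of genes of a few CPM. The spread between 4 libraries limits that of the rest.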

Additional observations from a re-analysis of the deposited data

Results flagged for a closer look

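In groups of 4 libraries, 14 values of the 315 groups examined (4.44%) stood apart from the other 3 by Dixon's test at its 95% critical value, where chance gives about 1 in 20. None of these was weighed further.

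In treated libraries, HA replicate 2 had 12.6 CPM of Tspan4 (others 18.8 to 19.5), 36.7 CPM of Ctbs (27.3 to 28.3) and 307 CPM of Ctsl (204 to 210.5). HA replicate 1 had 60.9 CPM of the interferon-response factor gene Irf1 (48.1 to 50.2) and 11.1% haemoglobin counts (12.3% to 12.5%). HA replicate 3 had 8.45 CPM of Gimap4 (10.6 to 10.9) and 3059 CPM of Col2a1 (1982 to 2073). Coacervate replicate 1 had 34.4 CPM of Fabp5 (21.8 to 22.9) and 18.5 CPM of Il1b (9.05 to 10.2).

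In osteoarthritic libraries, replicate 1 had 6.23 CPM of Clec4a2 (10.1 to 10.4), 23.3 CPM of the endothelial transcription factor gene Erg (18.3 to 18.7), 42.4 CPM of Fabp5 (61.4 to 63.6) and 2.24 CPM of Atp5md, an ATP synthase subunit (6.77 to 7.04). Replicate 4 had 2639 CPM of Apoe (1259 to 1389). The values of Apoe, Clec4a2 and Fabp5 enter the comparisons of both treatments with the osteoarthritic group.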

How the results depend on the processing

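Pooled calls were 0 under every scaling and filter of edgeR tried, with robust estimation, with the 12 libraries alone and with the replicate block (1799 genes at an unadjusted p under 0.05), 75 with DESeq2, 1 with limma on log2(FPKM + 1), 1 on log2(FPKM + 0.1), 1 with voom, 1 without osteoarthritic replicates 2 and 3, and 0 to 1475 over libraries left out singly. For HA against osteoarthritic they were 8 with DESeq2, 1 with each limma setting and 0 to 1 over single libraries. For coacervate against osteoarthritic, against 21, they were 0 with total counts, edgeR's own filter, no filter, either limma FPKM setting, the 12 libraries alone or the replicate block, 32 with at least 5 FPKM, 795 with DESeq2, 6 with voom, 1 with robust estimation, 3 without osteoarthritic replicates 2 and 3, and 0 to 2054 over single libraries. Coacervate against HA gave 325 with DESeq2, 149 without osteoarthritic replicates 2 and 3 and 0 to 11 over single libraries. Genes whose groups did not overlap numbered 39 with at least 5 FPKM, 961 without osteoarthritic replicates 2 and 3 and 65 to 482 over single libraries. Counts with a compared library left out are not directly comparable with 67, since smaller groups separate more easily. Replicate numbers did not pair the libraries: 1 of 12 libraries correlated best with its own number (r of same-numbered libraries -0.386 to 0.211), and the block is therefore not used beside results. The limma FPKM scalings moved the median of all genes to 0.108 and 0.131.

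Signs of single genes turned mostly with osteoarthritic replicates 2 and 3. Without those libraries the log2 differences were 0.12 for Hbe1, 0.22 for Ucma, -0.013 for Sox9, 0.095 for S100a8, 0.15 for Camp, 0.12 for Cfd, -0.22 for Thbs4, 0.28 for Fabp4, 0.049 for Gadd45a, 0.060 for Gpx1, 0.24 for Sdf2l1, 0.22 for Rpl37, 0.24 for Uqcrq, -0.59 for Acan, -0.38 for Prg4, -0.079 for Comp, -0.43 for Col1a1 and 0.28 for Hbb. Over single libraries left out they were -0.017 to 0.30 for Thbs4, -0.47 to 0.12 for Tnc, -0.24 to 0.19 for Col2a1, -0.25 to 0.29 for Acan, -0.070 to 0.51 for Prg4, -0.0098 to 0.26 for Comp, -0.095 to 0.39 for Col1a1, -0.10 to 0.21 for Mmp13 and -0.32 to 0.14 for Adamts5. Under other settings Col2a1 was 0.0097 with total counts, 0.197 and 0.198 with the limma FPKM settings, 0.079 with voom and 0.0070 with the replicate block, Acan -0.00074 with haemoglobin left out of totals and -0.0018 with at least 5 FPKM, Tnc, the matrix protein tenascin C, 0.12, 0.13 and 0.016 with the limma settings and voom, and Adamts5 0.046 and 0.081 with the limma FPKM settings. The causes were not tested. A group of 4 with a wide spread limits every comparison here; a lone or paired osteoarthritic group assumes the spread of the other groups.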
